A study of Homo sapiens with 13 samples.

Results

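The 29 genes described here are a fixed list of cholesterol and fatty acid synthesis genes and their regulators, taken by symbol from the tables of 2 xenograft experiments. Sterol synthesis accounted for 18 of them, fatty acid synthesis and desaturation for 6, and sterol sensing and transport for 5. The bulk table held 28 of the 29 among 57820 gene identifiers, and ACACA was not matched in it by its current identifier. The single-cell table held all 29 among 15005 genes. All tumours grew from BM1 cells, which were derived from the breast cancer line MDA-MB-231 and home to bone. Each athymic nude mouse, a host that lacks mature T cells, received 1000000 of them in a mammary fat pad. In the bulk experiment, 5 KMT5C tumours came from cells transduced with a lentivirus carrying human KMT5C, a histone H4 lysine 20 methyltransferase, under the EF1a promoter. The 5 CTRL tumours came from cells with the vector (pLV-EF1a-IRES-Hygro), and all 10 tumours were taken at 4 weeks. In the single-cell experiment, 3 RKIP tumours expressed RKIP-S153E, a mutant of the RAF kinase inhibitor protein whose transgene is the rat Pebp1 row of the table. They were set against 3 CTRL tumours of vector cells, BM1-VC, each pair from 1 replicate experiment and taken at 3 weeks. The cells of a pair were recognised by a shared ending of the column names, which was assumed to mark the experiment. The labels do not say whether an arm was 1 clone or a pool, so a difference that preceded the construct cannot be told apart from its effect. In bulk tumours, fewer cells of a type and less RNA per cell cannot be told apart either.

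Cholesterol is built from acetyl-CoA through mevalonate, isoprenoid units, squalene and lanosterol, and fatty acids are built from the same acetyl-CoA by carboxylation, chain assembly and desaturation. Both routes are under the transcription factors SREBP2 and SREBP1, encoded by SREBF2 and SREBF1. These precursors are carried by SCAP from the endoplasmic reticulum to the Golgi and cleaved there when sterols are low, while INSIG1 holds SCAP back when sterols are high. SREBP2 mainly drives sterol synthesis and uptake, and SREBP1c mainly drives fatty acid synthesis, together with the promoter-binding factors NF-Y and SP1.

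The promoters of 5 members are shown because their genes carry the results that follow. MSMO1 and SC5D were the members that passed the test as higher in KMT5C tumours, and HMGCS1 and SC5D had the highest ratios in RKIP tumours. SREBF2 encodes the regulator of the sterol branch, and SCD stands for the fatty acid branch. Each window runs from 250 bases before to 50 bases after the start of the gene, in RefSeq on GRCh38.p14, and is printed in the direction of transcription. Capitals mark the sterol element TCACNCCAC, the NF-Y motif CCAAT and the SP1 motif GGGCGG on either strand, so a match on the other strand reads ATTGG or CCGCCC, and neighbouring matches run together. The table held 2 windows each for SC5D and HMGCS1, of which the one with more matches is printed. The windows are at chr4:165327419-165327718, forward strand for MSMO1, at chr11:121292521-121292820, forward strand for SC5D, at chr5:43313363-43313662, reverse strand for HMGCS1, at chr22:41832855-41833154, forward strand for SREBF2, and at chr10:100346983-100347282, forward strand for SCD.
MSMO1: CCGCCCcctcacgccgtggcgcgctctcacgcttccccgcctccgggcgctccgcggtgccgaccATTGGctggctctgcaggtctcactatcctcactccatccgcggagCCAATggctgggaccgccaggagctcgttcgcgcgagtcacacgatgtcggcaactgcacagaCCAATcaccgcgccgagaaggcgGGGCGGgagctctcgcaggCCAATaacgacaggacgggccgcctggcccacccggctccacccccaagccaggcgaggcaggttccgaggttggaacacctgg
SC5D: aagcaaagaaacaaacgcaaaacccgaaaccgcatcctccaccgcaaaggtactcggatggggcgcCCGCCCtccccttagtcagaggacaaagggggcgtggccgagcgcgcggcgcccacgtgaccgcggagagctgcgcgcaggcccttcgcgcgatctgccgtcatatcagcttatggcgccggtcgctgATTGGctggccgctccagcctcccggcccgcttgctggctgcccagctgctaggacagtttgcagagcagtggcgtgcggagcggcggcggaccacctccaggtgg
HMGCS1: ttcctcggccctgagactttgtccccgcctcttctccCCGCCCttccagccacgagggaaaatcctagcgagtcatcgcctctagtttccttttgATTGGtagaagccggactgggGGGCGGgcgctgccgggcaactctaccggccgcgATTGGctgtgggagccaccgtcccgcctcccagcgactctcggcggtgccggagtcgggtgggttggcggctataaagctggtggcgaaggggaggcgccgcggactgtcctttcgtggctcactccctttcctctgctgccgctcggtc
SREBF2: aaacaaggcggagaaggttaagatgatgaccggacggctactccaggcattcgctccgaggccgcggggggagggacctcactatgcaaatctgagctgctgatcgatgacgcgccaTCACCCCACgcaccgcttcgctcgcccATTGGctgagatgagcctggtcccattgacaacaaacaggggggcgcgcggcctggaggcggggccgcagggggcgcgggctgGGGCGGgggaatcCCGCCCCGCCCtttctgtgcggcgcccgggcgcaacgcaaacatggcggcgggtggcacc
SCD: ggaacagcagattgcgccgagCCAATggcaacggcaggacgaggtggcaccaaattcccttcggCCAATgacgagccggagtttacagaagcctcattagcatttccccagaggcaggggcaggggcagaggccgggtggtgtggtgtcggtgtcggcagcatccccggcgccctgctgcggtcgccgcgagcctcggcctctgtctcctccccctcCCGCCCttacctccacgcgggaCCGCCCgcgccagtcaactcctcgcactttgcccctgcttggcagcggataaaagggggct

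CCAAT was frequent among the members. It was found in 20 of the 25 members with a window (80.0%), against 39.7% of the 27305 genes in the table. In the sterol branch 13 of 15 had it, and MSMO1 carried it 4 times. GGGCGG was found in 24 of 25 members (96.0%), against 48.3% of all genes. The sterol element as spelled here was found in SREBF2 only, 1 of 25 members (4.0%), against 1.39% of all genes. A match is a run of letters in these windows, and no match says nothing about binding elsewhere. The 27305 genes were not limited to genes expressed in these tumours, and a comparison with expressed genes only was not made. FDFT1, SQLE, ACAT2 and FASN had no window in the table.

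Sequencing depth was 37050750 to 49536763 counts in KMT5C tumours and 41665268 to 48003278 in CTRL bulk tumours. The RKIP tumours had 266, 274 and 256 cells, against 247, 267 and 258 cells in the CTRL tumours of experiments 1, 2 and 3. Median counts per cell ranged from 57023 to 90591 in RKIP tumours and from 55704 to 95289 in CTRL tumours. KMT5C itself had 99.8 to 145.2 counts per 1000000 counts (CPM) in KMT5C tumours, against 7.16 to 11.2 CPM in CTRL tumours. The rat Pebp1 transgene had 11.9, 205.2 and 126.0 CPM in RKIP tumours 1, 2 and 3, against 0, 0.608 and 0.295 CPM in the CTRL tumours, so RKIP tumour 1 was the lowest of its arm. All 7 genes listed for BM1 cells, such as VIM and CD44, were detected in both experiments.

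In the KMT5C tumours the enzymes of the late sterol pathway MSMO1 and SC5D rose modestly. No member passed the test as lower, while 7 of 28 had a log2 fold change below 0. MSMO1, the C4-methylsterol oxidase, had 136.8, 138.6, 121.9, 129.8 and 133.3 CPM in KMT5C tumours 807, 809, 816, 820 and 823, against 122.0, 94.8, 108.3, 104.9 and 106.9 CPM in CTRL tumours 801, 803, 804, 813 and 815. The arms overlapped only at KMT5C 816 and CTRL 801, which were almost equal. The means were 132.1 ± 6.62 CPM in KMT5C tumours and 107.4 ± 9.75 CPM in CTRL tumours (SD, n = 5 each), a log2 fold change of 0.30 (SE 0.072, edgeR quasi-likelihood test, Benjamini-Hochberg adjusted p = 0.0331). SC5D, which introduces the double bond at carbon 5 of the sterol ring, had 40.8, 39.3, 42.2, 44.4 and 36.3 CPM in KMT5C tumours, against 36.9, 31.6, 31.4, 29.4 and 34.6 CPM in CTRL tumours, in the same order of tumours. Only KMT5C 823 lay below a CTRL tumour, which was again CTRL 801. The means were 40.6 ± 3.07 CPM in KMT5C tumours and 32.8 ± 2.96 CPM in CTRL tumours (SD, n = 5 each), a log2 fold change of 0.31 (SE 0.080, edgeR adjusted p = 0.0499).

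Both calls lay close to the threshold of 0.05. They are 2 of 28 members tested, where 2.96% of all 17947 genes tested passed in either direction and 1.06% passed as higher. The MSMO1 call held when KMT5C 816, KMT5C 823 or CTRL 801 was left out and was lost without any 1 of the other 7 tumours, with log2 fold changes of 0.26 to 0.36. The SC5D call held without KMT5C 823 or CTRL 801 and was lost without any 1 of the other 8, with log2 fold changes of 0.28 to 0.36. Skeletal muscle markers also separated the arms: 7 of 10 tested passed as higher, and their summed level was 28.3 to 54.6 CPM in KMT5C tumours against 13.2 to 24.6 CPM in CTRL tumours. When the muscle level entered the fit as a covariate, the log2 fold changes were 0.31 for MSMO1 and 0.38 for SC5D. Both calls were lost (edgeR adjusted p = 0.55 and 0.497), with standard errors of 0.13 and 0.15. The covariate did not overlap between the arms, so muscle level and arm can hardly be told apart in that fit. Calls over all genes went from 531 to 10.

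**Figure D1:**
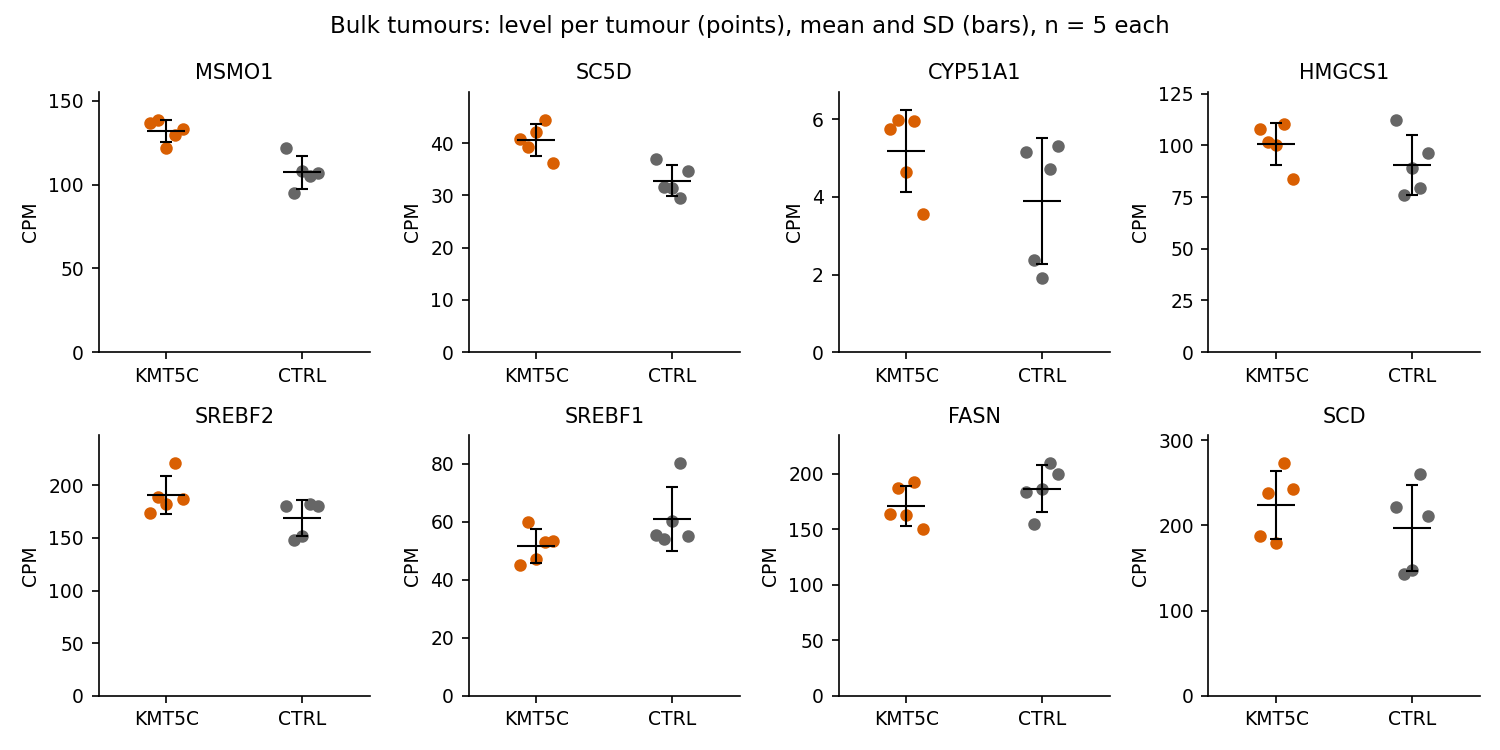
Level per bulk tumour in CPM of 8 members, KMT5C tumours at left and CTRL tumours at right, with the mean as a bar and the SD as whiskers (n = 5 each). MSMO1 and SC5D passed the test, while the other 6 genes did not, including SREBF1, where CTRL 813 stood at 80.1 CPM. The arms overlapped in all 8 genes.

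Of the sterol branch, 15 of 18 members had a log2 fold change above 0 in KMT5C tumours, where 9062 of all 17947 genes tested did. In this branch 2 members passed the test, and the median was 0.10, against a median of 0.0023 over all genes tested. Such a lean was not particular to the branch. Among genes of fatty acid elongation and supply 18 of 21 were above 0, with a median of 0.10. Of SREBP processing genes 7 of 9 were above 0, and of the isoprenoid side branch 4 of 11. For no single member did all 5 KMT5C tumours lie above or below all 5 CTRL tumours, which was the case for 2.44% (above) and 3.26% (below) of all genes tested. The mean log2 CPM over the 18 sterol genes was 5.55, 5.56, 5.48, 5.61 and 5.58 in KMT5C tumours 807, 809, 816, 820 and 823. In CTRL tumours 801, 803, 804, 813 and 815 it was 5.46, 5.37, 5.43, 5.40 and 5.47. The lowest KMT5C tumour thus stood just above the highest CTRL tumour on this average, with means of 5.56 ± 0.046 in KMT5C tumours and 5.43 ± 0.040 in CTRL tumours (SD, n = 5 each). The muscle marker sums given above do not overlap between the arms either. With the muscle covariate, 13 of 18 sterol members had a log2 fold change above 0 and the median was 0.11, and no member was called.

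CYP51A1, the lanosterol demethylase, had the highest log2 fold change of any member, on low levels that overlapped widely. It had 5.75, 5.99, 4.65, 5.95 and 3.57 CPM in KMT5C tumours, against 5.16, 2.38, 1.91, 4.72 and 5.31 CPM in CTRL tumours. The log2 fold change was 0.41 (SE 0.25, edgeR adjusted p = 0.44). It was 0.24 without CTRL 804 and 0.28 without CTRL 803, below the SC5D values of 0.30 in both fits, so its rank rested on single tumours. Reads on its locus can be shared with 2 overlapping protein-coding genes on the same strand. SQLE, the squalene epoxidase, also had an unadjusted p under 0.05 and a higher level, at 32.7 ± 3.74 CPM in KMT5C tumours and 28.6 ± 2.51 CPM in CTRL tumours (SD, n = 5 each; edgeR adjusted p = 0.29). In all, 4 of 28 members had an unadjusted p under 0.05 in edgeR, where 16.8% of all genes tested did. The enzymes from HMG-CoA synthase (HMGCS1) through isoprenoid synthesis (MVK, PMVK, MVD, IDI1, FDPS) to FDFT1, which makes squalene, ranged from -0.02 to 0.15 in log2 fold change. PMVK, EBP, the sterol isomerase, and HSD17B7, a 3-ketosteroid reductase of the pathway, were the 3 sterol members below 0, the lowest at -0.04.

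The fatty acid branch showed no call among 5 members tested with edgeR, none had an unadjusted p under 0.05, and DESeq2 called none of them. Its median log2 fold change was 0.014, and -0.07 with the muscle covariate. SCD, the stearoyl-CoA desaturase, ranged from 179.0 to 273.0 CPM in KMT5C tumours and from 142.5 to 260.8 CPM in CTRL tumours, the widest spread of the branch. FASN, the fatty acid synthase, had 163.3, 186.6, 162.6, 192.2 and 150.1 CPM in KMT5C tumours, against 183.4, 154.3, 185.9, 209.2 and 199.8 CPM in CTRL tumours. Its log2 fold change was -0.13 (SE 0.089, edgeR adjusted p = 0.53), the second lowest of all members, and -0.07 without CTRL 813. FADS1, the delta-5 desaturase, had 220.6, 223.7, 222.6, 263.9 and 245.5 CPM in KMT5C tumours, against 278.9, 229.2, 222.0, 235.8 and 265.1 CPM in CTRL tumours, and a log2 fold change of -0.07 (SE 0.080, edgeR adjusted p = 0.74). The arms overlapped in both genes. FADS1 overlaps FADS2, the delta-6 desaturase, on the opposite strand, and with no strand setting given their reads cannot be told apart in the overlap. ACLY, which makes cytosolic acetyl-CoA from citrate, had a log2 fold change of 0.01.

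The mean log2 CPM over the 5 fatty acid genes was 7.81, 7.96, 7.80, 8.15 and 7.95 in KMT5C tumours, against 8.04, 7.73, 7.78, 8.06 and 8.02 in CTRL tumours. These ranges overlapped, and the arm means were 7.93 ± 0.14 in KMT5C tumours and 7.92 ± 0.16 in CTRL tumours (SD, n = 5 each). The sterol mean minus the fatty acid mean was -2.38 ± 0.11 in KMT5C tumours and -2.50 ± 0.14 in CTRL tumours (SD, n = 5 each), which overlapped between the arms. The branches did not separate the arms when set against each other within a tumour.

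**Figure D2:**
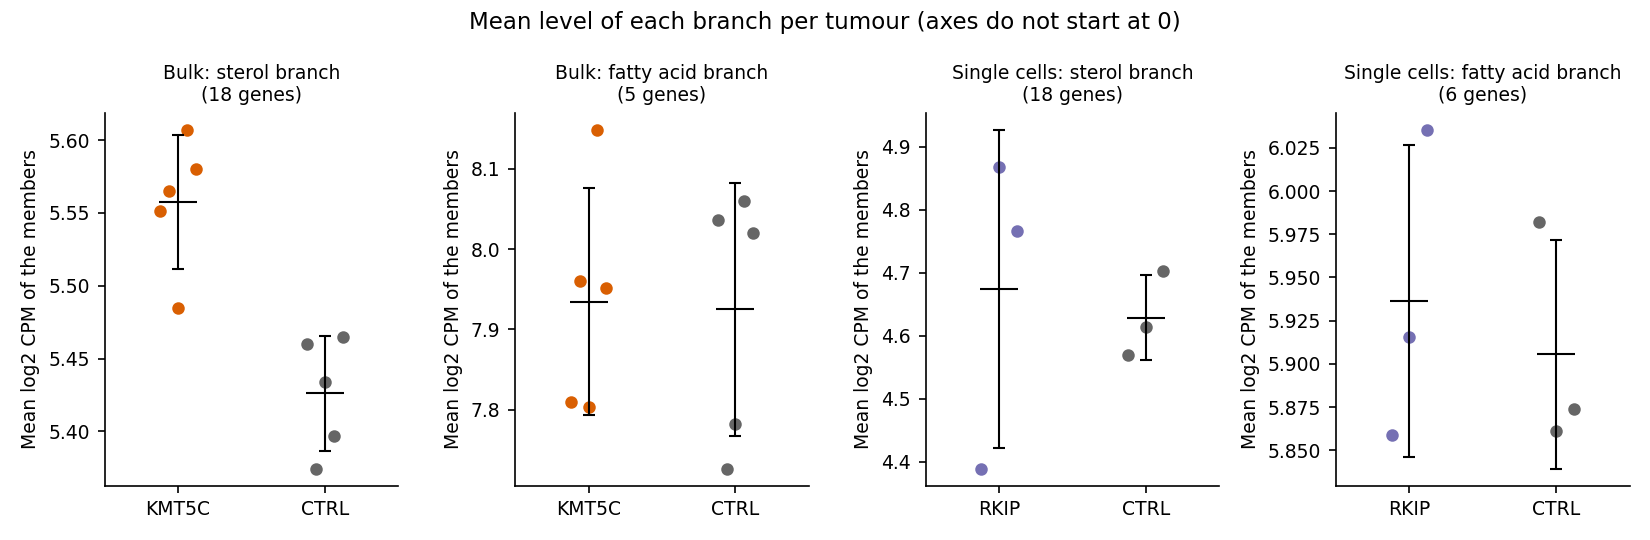
Mean log2 CPM over the genes of each branch, 1 point per tumour, with the mean and SD of each arm (5 tumours each in bulk, 3 each in single cells), the KMT5C or RKIP arm at left and CTRL at right. In bulk, the sterol average of the KMT5C tumours lies between 5.48 and 5.61, above the CTRL range of 5.37 to 5.47, and the other 3 panels overlap.

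Among the regulators, SREBF2 and SREBF1 had log2 fold changes of opposite sign and neither passed the test. SREBF2 had 173.4, 189.3, 182.0, 220.9 and 187.1 CPM in KMT5C tumours, against 180.7, 148.1, 151.9, 182.7 and 180.2 CPM in CTRL tumours, and a log2 fold change of 0.18 (SE 0.083, edgeR adjusted p = 0.30). SREBF1 had 45.1, 59.8, 47.1, 52.8 and 53.5 CPM in KMT5C tumours, against 55.5, 53.9, 60.3, 80.1 and 55.0 CPM in CTRL tumours. Its log2 fold change of -0.24 (SE 0.11, unadjusted p = 0.0441, edgeR adjusted p = 0.28) was the lowest of all members, and CTRL 813 stood above the other CTRL tumours. Without CTRL 813 the SREBF1 value was -0.11 (edgeR adjusted p = 0.55). It was -0.13 with the adipocyte covariate and -0.62 with the muscle covariate (SE 0.16, edgeR adjusted p = 0.28). INSIG1, both a sterol sensor and an SREBP target, had 102.2, 116.3, 90.5, 119.3 and 114.7 CPM in KMT5C tumours, against 122.3, 96.5, 112.5, 111.8 and 113.0 CPM in CTRL tumours. Its log2 fold change was -0.03 (SE 0.084, edgeR adjusted p = 0.88), with overlapping arms. SCAP had a log2 fold change of 0.06, and STARD4, which moves cholesterol between membranes, one of 0.16.

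The other genes of lipid metabolism gave 1 call. GRAMD1B, which carries cholesterol from the plasma membrane to the endoplasmic reticulum, rose to 6.81 ± 0.66 CPM in KMT5C tumours, against 4.26 ± 0.70 CPM in CTRL tumours (SD, n = 5 each), with a log2 fold change of 0.68 (SE 0.13, edgeR adjusted p = 0.0072). Its arms did not overlap, at 5.97 to 7.66 CPM in KMT5C tumours and 3.496 to 4.93 CPM in CTRL tumours. With the muscle covariate, which can hardly be told apart from arm, its log2 fold change was 0.74 and the call was lost (edgeR adjusted p = 0.37). It was 1 of 10 tested genes of sterol uptake and trafficking, with a list median of 0.07. None passed of 21 tested genes of fatty acid elongation and supply (median 0.10), 9 of SREBP processing (0.08), 11 of the isoprenoid side branch (-0.0066) and 9 of liver X receptor targets and sterol export (0.05). In these 4 lists 4, 1, 2 and 3 genes had an unadjusted p under 0.05 in edgeR, where 16.8% of all genes tested did.

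Adipocyte markers were low. Of 10 such markers 5 were tested, none passed, and their summed level was 3.18 to 3.85 CPM in KMT5C tumours and 3.15 to 4.79 CPM in CTRL tumours. Of 6 sebocyte markers 2 were tested and none passed, with sums of 67.4 to 82.4 CPM in KMT5C tumours and 68.6 to 81.9 CPM in CTRL tumours. Of 8 mammary luminal markers 4 were tested and none passed, with sums of 858 to 1177 CPM in KMT5C tumours and 796 to 1082 CPM in CTRL tumours. CSN2 and CSN3 of this list had no counts in any bulk tumour. In the single-cell data the 4 luminal markers present summed to 1142 to 1383 CPM in RKIP tumours. In the CTRL tumours of that experiment they summed to 1173 to 1618 CPM. Whether host mammary tissue or BM1 cells gave the luminal sums was not tested. Leukocyte markers summed to 93.7 to 121.9 CPM in KMT5C tumours, below the 124.5 to 172.2 CPM of CTRL tumours. That sum was mostly 1 gene, LAPTM5, which fell, with means of 89.6 CPM in KMT5C tumours and 140.4 CPM in CTRL tumours. All 4 leukocyte markers tested had a log2 fold change below 0, and only LAPTM5 passed. The single-cell table held 2 of the 7 leukocyte markers. These summed to 107.4 to 116.5 CPM in RKIP tumours and 83.9 to 127.8 CPM in CTRL tumours. Whether leukocytes or BM1 cells gave the bulk sums was not tested. Of 4 tested endothelial markers 2 had a log2 fold change above 0 and 2 below 0, and only TIE1 passed, as lower. Of 4 tested keratinocyte markers 3 had a log2 fold change above 0, as had all 4 tested fibroblast markers, and none passed. Of the 7 genes listed for BM1 cells 5 were above 0. Only MSN of these passed, as higher (log2 fold change 0.43, edgeR adjusted p = 0.0256). The part of these cell types in the member values was not tested beyond the covariate fits.

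**Figure D3:**
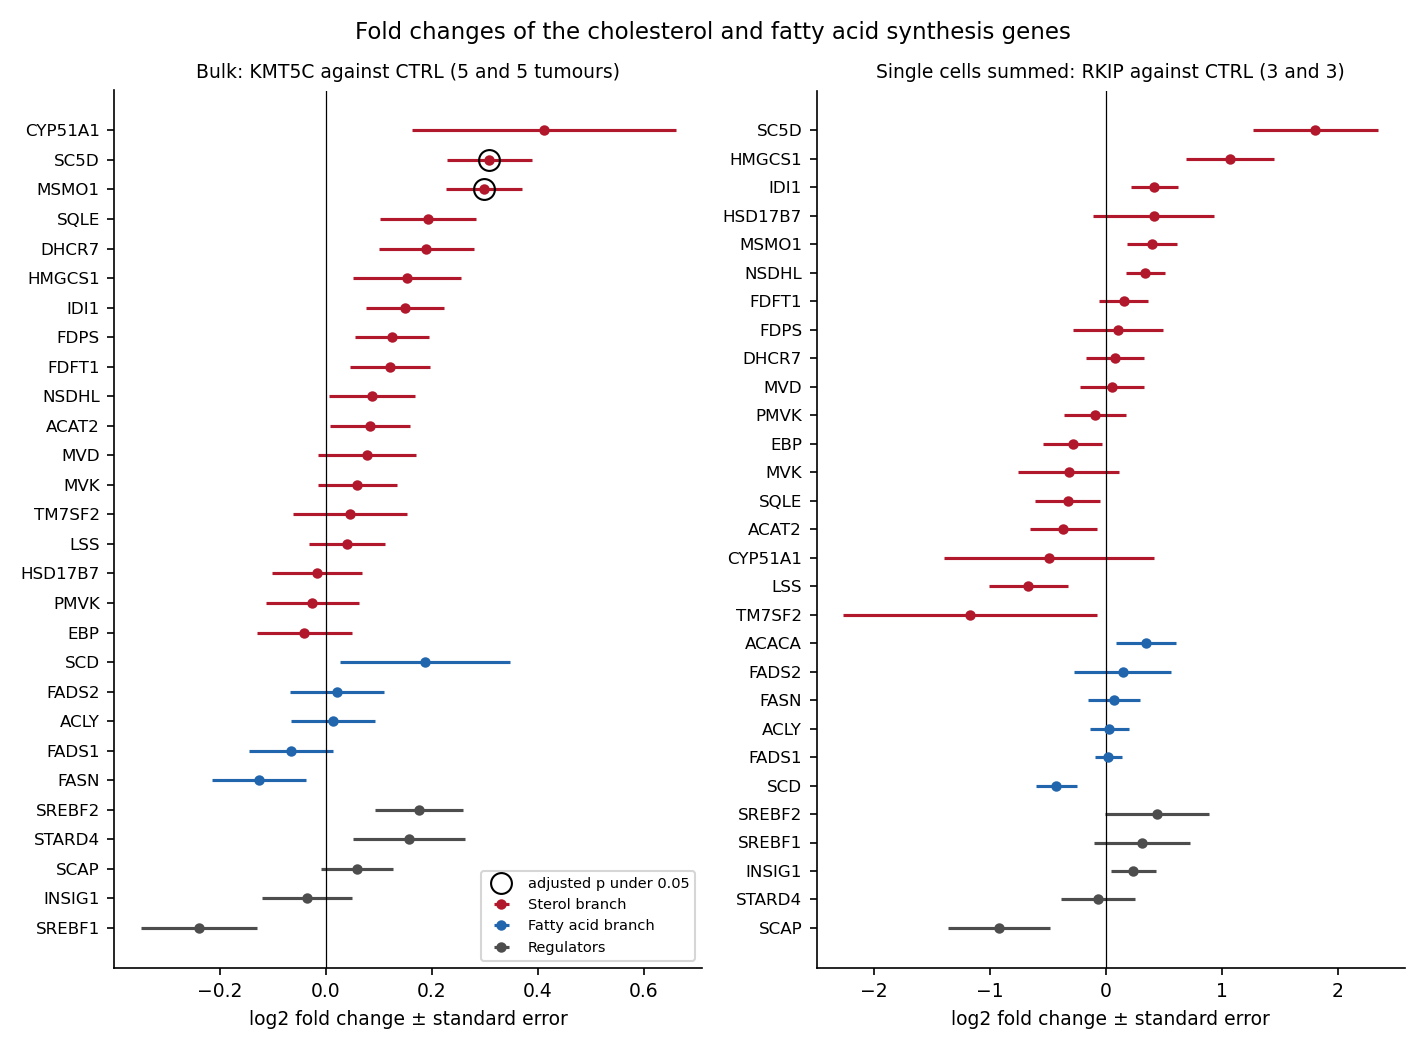
Log2 fold change with its standard error for each member, ordered within branch, for KMT5C against CTRL bulk tumours (left, 28 members) and RKIP against CTRL single-cell tumours (right, 29 members). Circles mark MSMO1 and SC5D, the members with an adjusted p under 0.05, and the 2 panels have different scales because the standard errors differ.

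In the single-cell tumours no member passed the test between RKIP and CTRL. Counts summed over the cells of each tumour gave 0 of 29 members called by edgeR with the experiment as a block, where 1 of 14528 genes tested (0.00688%), the rat transgene, was called. At an unadjusted p under 0.05 there were 3 members, SC5D and HMGCS1 above 0 and SCD below 0, where 4.01% of all genes tested were under it, and DESeq2 called 0 members. The standard errors of 0.12 to 1.09 on the log2 scale limit what these 6 tumours can show. The median log2 fold change was 0.07 in the sterol branch, 0.05 in the fatty acid branch and 0.24 among the regulators, against 0.0029 over all genes tested. The sterol median was 0.15 without experiment 1 and -0.12 without experiment 3, so its sign rested on experiment 3, and the fatty acid median was 0.16 without experiment 1 and -0.012 without experiment 2.

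SC5D had the highest ratio of any member. It had 18.5, 25.5 and 12.2 CPM in RKIP tumours 1, 2 and 3, against 2.54, 6.89 and 7.59 CPM in CTRL tumours 1, 2 and 3. All 3 RKIP tumours lay above all 3 CTRL tumours, and the log2 fold change was 1.81 (SE 0.54, unadjusted p = 0.0141, edgeR adjusted p = 0.97). A single cell held 63.3%, 32.0% and 31.4% of the SC5D counts in RKIP tumours 1, 2 and 3, against 17.8%, 7.35% and 19.9% in the CTRL tumours. When each cell was thinned to 20000 counts, so that all cells weighed the same, the log2 fold change was 1.29 (SE 0.49, edgeR adjusted p = 0.98).

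HMGCS1, which makes HMG-CoA at the entry of the pathway, came next. It had 86.1, 71.8 and 70.6 CPM in RKIP tumours, against 18.8, 46.5 and 52.3 CPM in CTRL tumours, and again the arms did not overlap. The log2 fold change was 1.07 (SE 0.38, unadjusted p = 0.0280, edgeR adjusted p = 0.97), and 0.53 without experiment 1, where 1 cell held 37.1% of the RKIP counts and the transgene was lowest. SREBF2 followed, at 15.1, 29.7 and 26.6 CPM in RKIP tumours and 23.3, 11.2 and 18.1 CPM in CTRL tumours, with a log2 fold change of 0.44 (SE 0.45, edgeR adjusted p = 0.97). Its arms overlapped, the pair of experiment 1 went the other way, and the log2 fold change was 0.98 without experiment 1 and -0.03 without experiment 2. On sums of thinned cells the log2 fold changes were 0.87 for HMGCS1 and 0.14 for SREBF2. Separate arms were also seen for IDI1, the isopentenyl diphosphate isomerase, and NSDHL, a sterol decarboxylase, both higher in RKIP tumours. They were likewise seen for LSS and SCD, which were lower there. In all, 4 of 29 members had every RKIP tumour above every CTRL tumour and 2 had every one below, where 4.43% and 4.47% of all genes tested did.

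TM7SF2, a sterol C14-reductase, had the lowest ratio and rested on 1 tumour. It had 1.11, 26.7 and 17.97 CPM in RKIP tumours, against 32.4, 20.3 and 19.6 CPM in CTRL tumours, so only RKIP tumour 1 stood apart. The log2 fold change was -1.17 (SE 1.09, edgeR adjusted p = 0.97), 0.14 without experiment 1 and -0.23 on sums of thinned cells. Reads on the TM7SF2 locus can be shared with VPS51, which overlaps it on the same strand. SCAP had 9.30, 8.44 and 18.6 CPM in RKIP tumours, against 34.0, 14.99 and 19.6 CPM in CTRL tumours, lower in each pair (log2 fold change -0.92, SE 0.44, edgeR adjusted p = 0.97). Without experiment 1 the SCAP value was -0.45. LSS, which closes the ring to lanosterol, had 11.6, 11.05 and 17.1 CPM in RKIP tumours, against 20.3, 22.0 and 19.8 CPM in CTRL tumours, a log2 fold change of -0.67 (SE 0.34, edgeR adjusted p = 0.97). SCD had 114.0, 116.3 and 93.2 CPM in RKIP tumours, against 196.9, 125.8 and 121.0 CPM in CTRL tumours (log2 fold change -0.43, SE 0.18, unadjusted p = 0.0488, edgeR adjusted p = 0.97). Without experiment 1 the SCD value was -0.24.

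MSMO1, called in bulk, was not called here. It had 93.4, 82.6 and 71.2 CPM in RKIP tumours, against 51.5, 73.3 and 63.0 CPM in CTRL tumours, higher in each of the 3 pairs with overlapping arms (log2 fold change 0.40, SE 0.22, edgeR adjusted p = 0.97). Without experiment 1 the MSMO1 value was 0.18. INSIG1 had 103.3, 107.2 and 85.8 CPM in RKIP tumours, against 90.3, 70.3 and 91.5 CPM in CTRL tumours. SREBF1 had 11.4, 16.5 and 13.1 CPM in RKIP tumours, against 7.89, 9.52 and 17.2 CPM in CTRL tumours. Both overlapped between the arms, with log2 fold changes of 0.24 (SE 0.20) for INSIG1 and 0.31 (SE 0.42) for SREBF1. Without experiment 2 these were 0.053 for INSIG1 and 0.07 for SREBF1. The remaining members ranged from -0.49 for CYP51A1 to 0.42 for IDI1.

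Some members differed more between experiments than between arms. FADS1 had 296.5 CPM in the RKIP tumour and 304.2 CPM in the CTRL tumour of experiment 1, but 184.5 to 213.2 CPM in RKIP tumours and 187.5 to 196.5 CPM in CTRL tumours of the other experiments. MVD, the mevalonate diphosphate decarboxylase, had 76.8 CPM in the RKIP tumour and 51.0 CPM in the CTRL tumour of experiment 3, against 18.3 to 19.8 CPM in RKIP tumours and 19.2 to 25.4 CPM in CTRL tumours of the others. The sterol mean log2 CPM was 4.39, 4.87 and 4.77 in RKIP tumours, around the CTRL values of 4.57, 4.61 and 4.70. The fatty acid mean was 5.86, 5.92 and 6.04 in RKIP tumours, against 5.98, 5.86 and 5.87 in CTRL tumours. RKIP and CTRL cells sat in different columns of the C1 chip, so chip column and arm cannot be told apart.

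**Figure D4:**
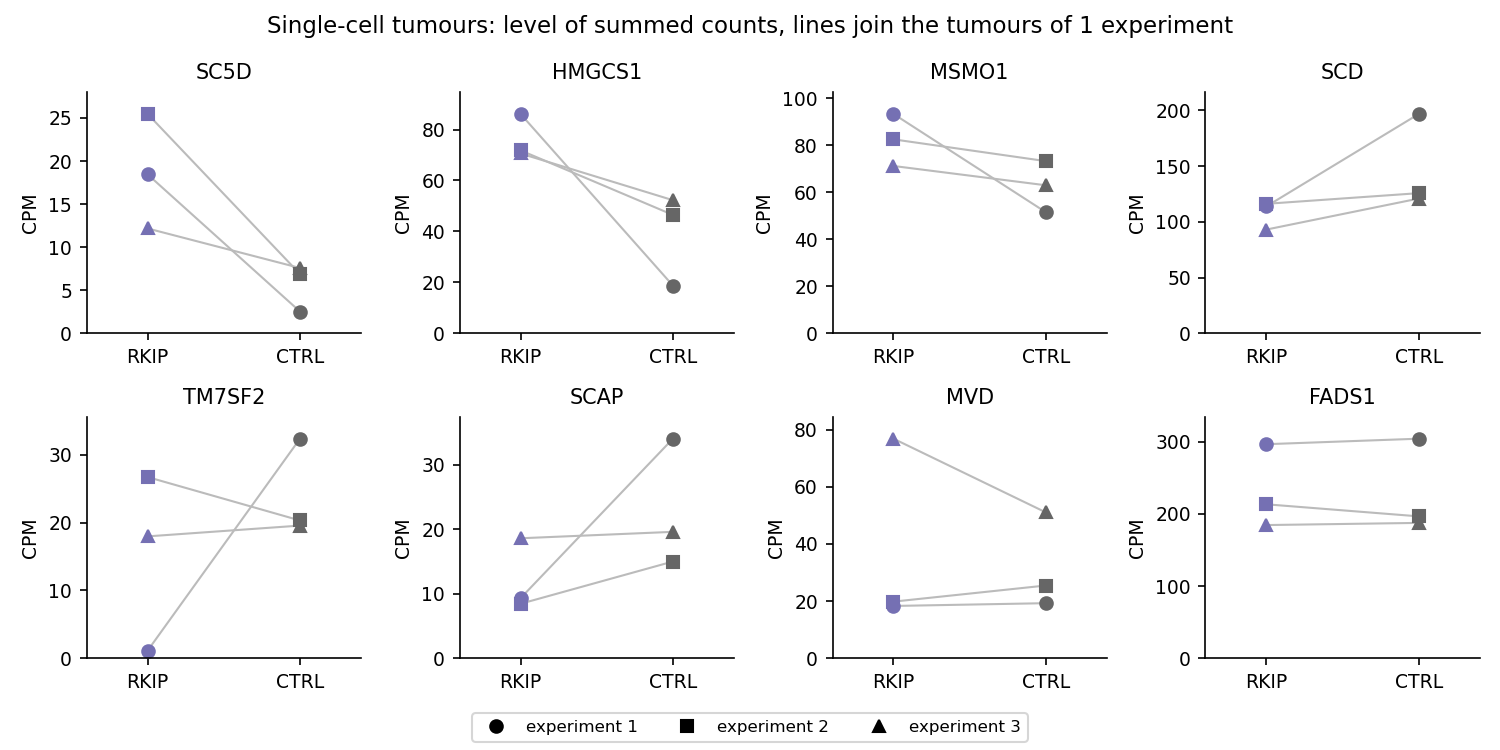
CPM of 8 members in counts summed over the cells of each tumour, RKIP at left and CTRL at right, with a line joining the tumours of 1 experiment. SC5D and HMGCS1 are higher in all RKIP tumours, TM7SF2 and SCAP differ most in experiment 1, and MVD and FADS1 differ more between experiments than between arms, with MVD at 76.8 and 51.0 CPM in experiment 3.

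Over cells, the share with at least 1 count of a member at 20000 counts per cell ranged from 1.15% for TM7SF2 in RKIP tumour 1 to 75.9% for FADS1 in RKIP tumour 3. MSMO1 was counted in 50%, 57.0% and 46.5% of cells in RKIP tumours, against 34.0%, 47.2% and 42.6% in CTRL tumours. Without thinning its shares were 65.8%, 78.8% and 64.8% of cells in RKIP tumours (exact 95% binomial intervals 59.7% to 71.5%, 73.5% to 83.5% and 58.6% to 70.7%). In CTRL tumours they were 53.8%, 66.7% and 56.2% (47.4% to 60.2%, 60.7% to 72.3% and 49.9% to 62.3%), and these intervals cover counting error only. The thinned share was thus higher in RKIP in each experiment. HMGCS1 was counted in 25.0%, 34.4% and 40.7% of thinned cells in RKIP tumours, against 11.6%, 32.1% and 23.6% in CTRL tumours. SC5D was counted in 5.77%, 15.2% and 12.4% in RKIP tumours, against 4.15%, 10.98% and 8.86% in CTRL tumours. The SC5D shares were closer between the arms than its CPM, and the mean thinned count was under 1 per cell in all 6 tumours. In all 3 pairs the share was higher in RKIP for 8 members, HMGCS1, IDI1, CYP51A1, MSMO1, NSDHL, SC5D, FADS1 and ACACA, and lower for 5, MVK, PMVK, SQLE, ACAT2 and FASN. Of all 14528 genes tested, 14.8% had a higher share in all 3 pairs and 11.3% a lower one.

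**Figure D5:**
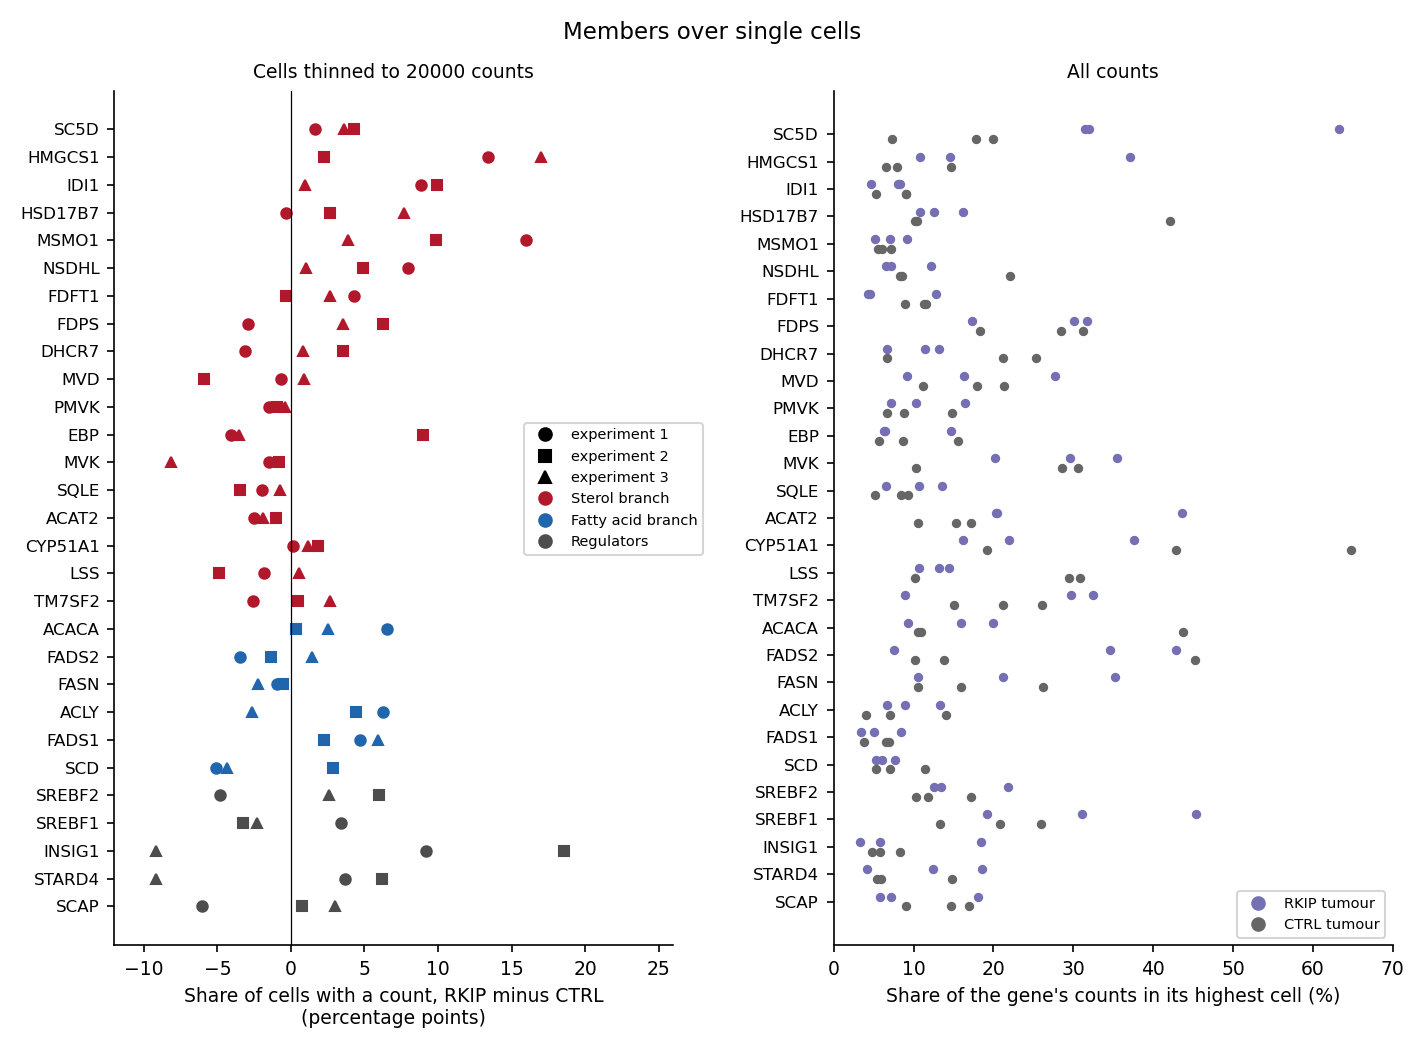
Left, difference in the share of thinned cells with a count of each member, RKIP minus CTRL in percentage points, 1 symbol per experiment. Right, share of a member's counts held by its highest cell in each tumour, RKIP above CTRL, where SC5D reaches 63.3% in RKIP tumour 1 and CYP51A1 64.8% in a CTRL tumour.

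Variation between cells was measured as the log2 squared coefficient of variation at 20000 counts per cell, less its trend on the mean, so that a positive residual marks a gene more uneven than others at its level. No member passed the limma test between RKIP and CTRL (0 of 28 tested), where 0 of 10159 genes (0%) passed and 408 had an unadjusted p under 0.05, 2 of them members. The highest mean residuals over the 6 tumours were 1.35 for MVD, 1.01 for FASN and 0.73 for TM7SF2, and the lowest were -0.99 for MSMO1, -0.69 for STARD4 and -0.57 for FDFT1. MSMO1 was thus among the most evenly counted members, with residuals of -1.33, -1.39 and -0.65 in RKIP tumours and -1.49, -0.80 and -0.31 in CTRL tumours. MVD had 1.17, -0.64 and 2.94 in RKIP tumours and 0.33, 0.34 and 3.92 in CTRL tumours, with the highest values in experiment 3. FASN likewise had -0.10, 1.52 and 2.05 in RKIP tumours and -0.73, 0.95 and 2.35 in CTRL tumours. SC5D had residuals of 0.54, 1.29 and 1.72 in RKIP tumours, above the -1.25, -0.31 and -0.84 of CTRL tumours, a difference of 1.99 (SE 0.48, limma adjusted p = 0.93). SCAP had the lowest difference, -1.31 (SE 0.52, limma adjusted p = 0.93).

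Within a tumour, members rose and fell together over cells only weakly. Over 45 pairs of the 10 sterol members with a mean of at least 0.5 thinned counts, the median Spearman correlation was 0.05, 0.06 and 0.07 in RKIP tumours and 0.03, 0.06 and 0.06 in CTRL tumours. Over all 15426235 pairs of 5555 genes it was 0.02, 0.01 and 0.04 in RKIP tumours and 0.02, 0.02 and 0.03 in CTRL tumours. Pairs between the branches had medians of 0.03, 0.06 and 0.05 in RKIP tumours and 0.04, 0.07 and 0.04 in CTRL tumours, in the range of the pairs within the sterol branch. Correlations this low in sparse counts from cells that share a library are given as a description and are no finding. Against the summed counts of the other sterol members, the highest medians over the 6 tumours were 0.20 for IDI1, 0.17 for MSMO1 and 0.16 for FDFT1, and INSIG1 had 0.17 against the sterol sum. SREBF1 and SREBF2 had -0.0092 and 0.038. The summed sterol counts had a median correlation of 0.17 with the summed fatty acid counts, 0.11 with S phase genes, 0.09 with G2 or M phase genes and 0.19 with the genes detected per cell before thinning.

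The 10 genes outside the list with the highest median correlation with the summed sterol counts, of 5539 ranked over the 6 tumours, had values of 0.15 to 0.17. In order they were DBI, an acyl-CoA binding protein, CCT2, a chaperonin subunit, VRK2, a kinase, BEX3, MYL12B, a myosin light chain, BRK1, an actin regulator, ARCN1, a coatomer subunit, COMMD1, POLR3K, an RNA polymerase III subunit, and EIF3M, a translation initiation factor. DBI had 0.15, 0.17 and 0.02 in RKIP tumours and 0.21, 0.17 and 0.17 in CTRL tumours. These values differ little from each other and lie at the level reached by single members.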

How the data were processed

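The tables were deposited as raw counts in whole numbers, with no normalization. The submitters' processing notes name Trim Galore for trimming, STAR for alignment, featureCounts for counting, and the builds hg38 and hg19. Versions, the role of each build, the strand setting, molecular identifiers and removal of mouse reads are not given in the sources used here. Identifiers without a symbol held 0.664% of bulk counts and were kept. Members and lists were chosen with earlier results of these data known.

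The main test was edgeR's quasi-likelihood F test (edgeR 4.0.16, R 4.3.3; filterByExpr, TMM), two-sided, Benjamini-Hochberg adjusted over all genes, threshold 0.05. CPM is counts per 1000000 of the scaled library, and SE was derived from the F statistic. Cells of a tumour were summed, without 1 cell under 1000 genes and with no doublet call. Cells were assigned to arms by the start of the column name and to 3 tumours per arm by its ending. That an ending marks an experiment, shared by both arms, is an assumption that no source used here states, and n = 3, the pairs and the block rest on it. Experiment numbers are arbitrary. Single-cell fits had the experiment as a block, since per the labels each experiment gave 1 tumour of either arm. Deviations of tumours of the same experiment correlated at 0.188, 0.0705 and 0.19, and those of different experiments at -0.173 to 0.0348. For values over cells, cells were thinned to 20000 counts, leaving out 87 cells, and residuals from a lowess trend were compared with limma 3.58.1 where the thinned mean was 0.1 or more and each tumour had a count. CYP51A1 was not among them. DESeq2 1.42.0 was an alternative. Scripts were tested on simulated data. Values per tumour are given for members past the threshold, the 3 highest and 3 lowest log2 fold changes in each comparison, SREBF1, SREBF2 and INSIG1. SQLE and SCD in bulk, SCD, FADS1, MVD and IDI1 in single cells, and SC5D and SCAP for variation lie outside that rule and were chosen after their values were seen.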

Additional observations from a re-analysis of the deposited data

Results flagged for a closer look

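Among 56 sets of 5 bulk tumours, 1 set per member and arm, 3 held a tumour far from the other 4 by Dixon's test, which flags about 1 set in 20 by chance. ACLY stood at 424.3 CPM in KMT5C 820 and HSD17B7 at 16.3 CPM, the lowest of its arm, in the same tumour. SREBF1 stood at 80.1 CPM in CTRL 813, above the other CTRL tumours.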

How the results depend on the processing

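Bulk calls numbered 531. They numbered 1107 with DESeq2, 801 without a low-count filter, 10 with the muscle marker covariate and 337 to 681 when 1 tumour was left out. Members called, 2 of 28, numbered 1 without the filter, 0 with the muscle covariate, 1 with the adipocyte covariate and 0 to 2 when 1 tumour was left out. Single-cell calls numbered 60 with DESeq2, 0 without the replicate block and 0 to 1 when 1 experiment was left out, against 1 in the main fit, and no member was called in any of these. When 1 experiment was left out, the single-cell medians were -0.117 to 0.148 for the sterol branch and -0.012 to 0.163 for the fatty acid branch. The bulk fatty acid median was -0.040 to 0.032 when 1 tumour was left out. Correlations over cells were higher on unthinned CPM, at 0.10 for sterol pairs, 0.097 for pairs between the branches and 0.040 for all pairs, and pairs between the branches had 0.064 at 40000 counts. For the members and genes named, 240 of the alternative values kept direction and side of the threshold, 20 lost a bulk call of MSMO1, SC5D or GRAMD1B, and 9 changed sign with no call on either side. These 9 were INSIG1 in bulk without CTRL 801 or KMT5C 816 (range with 1 tumour left out -0.075 to 0.029), SREBF2 without experiment 2 (range with 1 experiment left out -0.034 to 0.98) and TM7SF2 without experiment 1 (-2.42 to 0.14). For variation they were MVD at 1.25, TM7SF2 at -0.22 and STARD4 at -0.028 at 40000 counts, TM7SF2 without experiment 3 (-0.034 to 0.66) and FDFT1 without experiment 1 (-0.21 to 0.23). The causes were not tested. Sums of thinned cells were added after seeing the data. The part of sequencing depth in the values of low members such as CYP51A1 was not tested.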

Other observations

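KMT5C 820 was the highest of all 10 tumours for 11 of 28 members, among them SREBF2, SCD, LSS, FDFT1 and DHCR7. It was the lowest for 2, HSD17B7 and EBP. The same count over all genes was not made, so these numbers do not mark a trait of the members. KMT5C 823 was the highest for 5 members, and no CTRL tumour for more than 3. KMT5C 820 had the highest sterol mean and the highest fatty acid mean of the 10 tumours.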
